A study of Mus musculus with 6 samples.

Results

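The genes described here encode cytochrome P450 enzymes, and they were followed across Ribo-seq libraries of mouse tissues. A member was any gene whose mouse symbol consists of Cyp, a number, letters and a final number, such as Cyp2f2, Cyp4b1 or Cyp3a13. Of the annotated genes, 95 had such a symbol, and 83 of them were among the 18437 mRNAs listed in at least 1 of the 6 libraries. Ribo-seq sequences the mRNA fragments that translating ribosomes shield from nuclease, so that reads on a coding sequence (CDS) report how many ribosomes occupied it. The libraries came from wild-type (WT) C57BL/6J mice, 4 weeks old and untreated, and the labels name lung, heart, brain, small intestine, kidney and colon, with 1 library for each. The 6 groups shared strain, genotype and age and differed by tissue label alone, and nothing in the labels says how many animals went into a library. Values are RPKM, the reads on a CDS scaled by its length and by the reads on all CDSs, here called ribosome density. A single library stood for each tissue, so differences between tissues have no replicate check and were not tested. For the same reason the 95% intervals given below cover counting error only. The reads carry no molecular identifiers, so copies of a fragment count as separate reads, and the intervals may be too narrow.

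Cytochrome P450 enzymes bind a heme group through a conserved cysteine and use oxygen and electrons from a reductase to insert an oxygen atom into a substrate. Members of families 1 to 3 handle drugs, pollutants and arachidonic acid, members of family 4 hydroxylate fatty acids at the far end of the chain, and the remaining families make or clear steroid hormones, bile acids, oxysterols, vitamin D and retinoic acid. The liver holds the most, while lung, gut and kidney carry sets of their own at the sites where foreign compounds enter or leave the body.

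The tissue labels were compared with marker genes, and 4 of the 6 did not match. Neuronal Snap25 had 683 RPKM under the small intestine label and 0.761 RPKM under the brain label. The enterocyte genes Fabp2 and Sis had 24021 and 779 RPKM under the brain label against 280 and 13.0 RPKM under the small intestine label. The goblet cell mucin Muc2 had 2486 RPKM under the kidney label and 1.15 RPKM under the colon label, and Umod of the renal tubule had 16438 RPKM under the colon label and 10.9 RPKM under the kidney label. The heart marker Myh6 (6616 RPKM) and the lung marker Sftpc (39332 RPKM) were each highest under their own label. Every library is therefore named by its label only, and a direction given for the brain, small intestine, colon or kidney label is a statement about that label and not about the organ. Reads on CDSs ran from 4504853 in the colon-labelled library to 10635031 in the brain-labelled one, and 3 reads on a CDS of 1500 nt would have given between 0.188 and 0.444 RPKM.

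The base sequence around the heme-binding cysteine is shown, since it holds the residue through which a P450 enzyme binds heme. It is given for the 5 members that were densest in a library and for Cyp2j6, Cyp3a13 and Cyp4b1, which were picked by hand. The picked genes that are shown also exceeded 100 RPKM, as did other members that are not shown. Cyp2s1 was picked too, with at most 88.6 RPKM, but it lacked the signature searched for and is not shown. Each line gives 30 nt of the CDS, 5′ to 3′, with the codon of the heme-binding cysteine in capitals, read from the GRCm39 transcripts.
Cyp2c55: ttctcaataggaaagcgaatgTGCgtggga
Cyp2f2: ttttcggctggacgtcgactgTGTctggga
Cyp2j5: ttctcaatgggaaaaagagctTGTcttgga
Cyp2j6: ttctcaatgggaaagcgagctTGCctggga
Cyp3a13: tttgggagtggaccaaggaacTGCattggc
Cyp46a1: ttttccctgggccaccggtccTGCatcggc
Cyp4b1: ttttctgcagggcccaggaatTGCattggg
Cyp4v3: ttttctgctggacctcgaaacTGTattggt
The translated CDSs of 89 of the 95 members held the heme-binding cysteine signature in the form FxxGxxxCxG, with x for any residue. Cyp20a1, Cyp2b10, Cyp2d13, Cyp2s1, Cyp3a59 and Cyp8b1 did not. Between pairs of the 8 genes shown, from 13 to 26 of the 30 bases were identical, with 26 in the pair Cyp2j5 and Cyp2j6. The stretch crossed an exon junction in 64 members and lay within a single exon in 25. Of the 8 shown, those of Cyp3a13 (chr5:137893529-137893558, minus strand) and Cyp46a1 (chr12:108327477-108327506, plus strand) were each unbroken in the genome, and the other 6 crossed a junction.

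The summed ribosome density of the members differed widely between libraries, and in 3 of the libraries a single gene supplied most of it. The sum was 4239 RPKM (95% counting interval 4201 to 4277) in the kidney-labelled library and 4031 RPKM (3994 to 4068) in the lung-labelled one. It was 2232 RPKM (2197 to 2268) in the colon-labelled library and 1721 RPKM (1701 to 1741) in the brain-labelled one. The sums were 413 RPKM (401 to 425) under the small intestine label and 136 RPKM (129 to 142) under the heart label. None of these counting intervals overlapped another. As a share of all reads on CDSs, members took 0.625% (95% Wilson interval 0.620 to 0.631) in the kidney-labelled library and 0.0204% (0.0195 to 0.0214) in the heart-labelled one. Cyp2c55 gave 84.8% of the kidney-labelled sum, Cyp2f2 gave 73.0% of the lung-labelled sum and Cyp2j5 gave 62.2% of the colon-labelled sum. The brain-labelled sum was spread more widely, with 23.9% from its leading gene Cyp4v3, and 6 members there exceeded 100 RPKM.

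**Figure D1:**
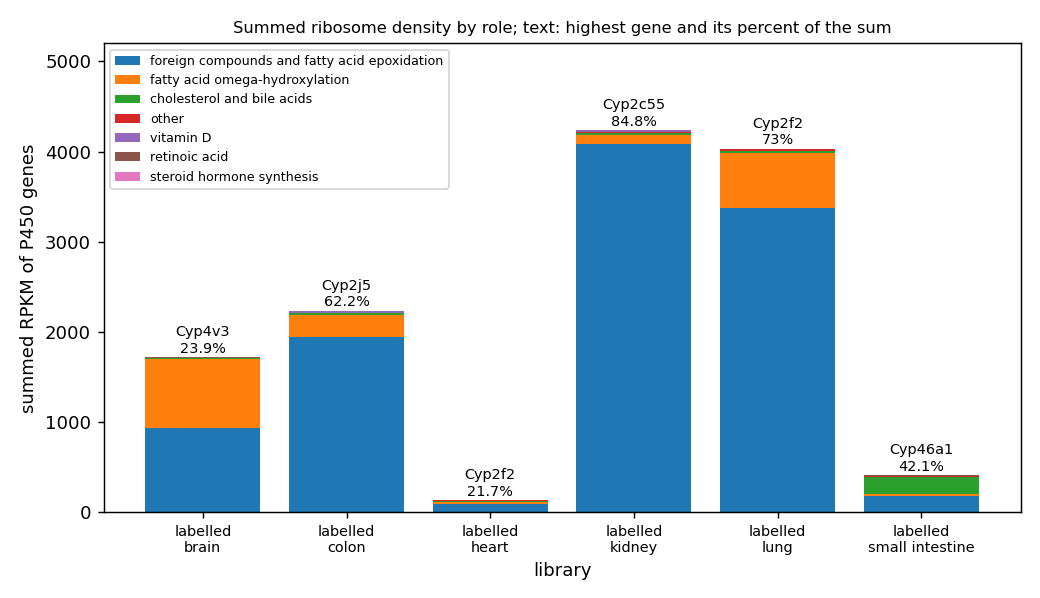
Summed RPKM of the P450 genes (vertical axis, linear from 0) in each of the 6 libraries (horizontal axis, by label), stacked by the role of the gene, with the leading gene and its percent of the sum above each bar. The kidney-labelled (4239 RPKM) and lung-labelled (4031 RPKM) bars are the tallest and the heart-labelled bar (136 RPKM) the lowest. Genes of families 1 to 3, without Cyp2r1, fill most of every bar except the one labelled small intestine.

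In 5 of the libraries fewer members lay above 1 RPKM than at or below it, and the share above 1 RPKM was under that of mRNAs at large in all 6. In the kidney-labelled library 47 of the 83 listed members (56.6%) exceeded 1 RPKM, against 62.5% of all mRNAs. In the colon-labelled library 35 members (42.2%) did so against 56.5% of all mRNAs, and in the brain-labelled library 30 members (36.1%) against 51.4%. The corresponding counts were 26 members (31.3%) against 55.0% under the lung label, 25 members (30.1%) against 66.0% under the small intestine label and 19 members (22.9%) against 60.0% under the heart label. The lung-labelled library thus had the second highest sum but reads on only 34 members, the fewest of the 6, while the kidney-labelled library had reads on 71. The median member lay at 1.43 RPKM in the kidney-labelled library, at 0 RPKM in the lung-labelled one and between 0.0622 and 0.266 RPKM in the others.

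**Figure D2:**
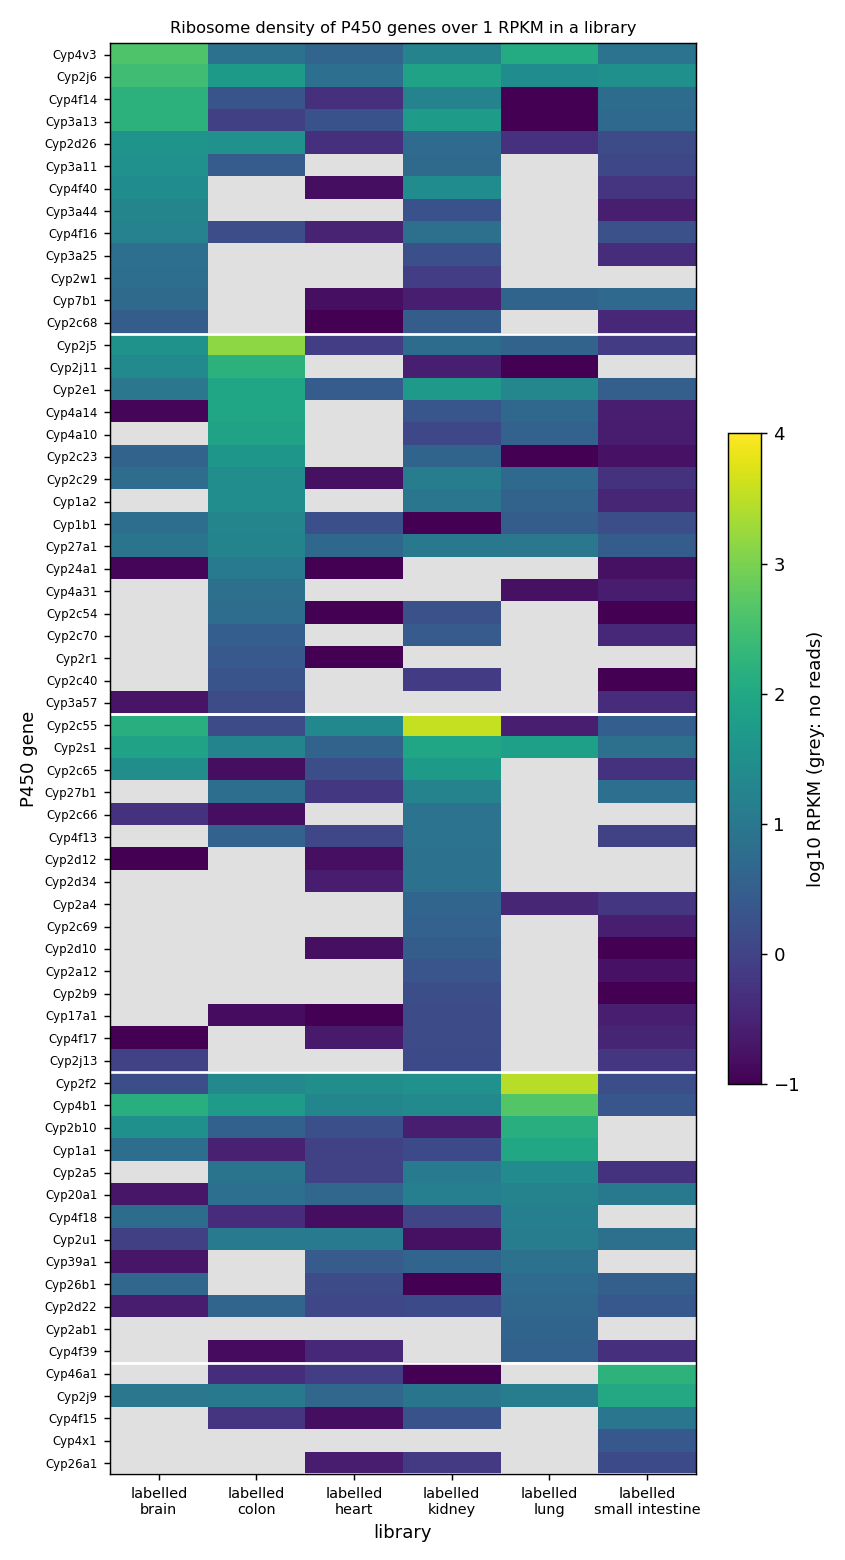
Ribosome density of the 64 P450 genes that exceeded 1 RPKM in at least 1 library (rows) in the 6 libraries (columns, by label), as log10 RPKM on a colour scale whose lowest colour also stands for values under 0.1 RPKM, with grey for no reads. Genes are grouped by the library in which they were highest, and no group belongs to the heart label, while the brightest cells are Cyp2c55 under the kidney label and Cyp2f2 under the lung label.

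The largest role was that of families 1 to 3 without Cyp2r1, which was counted with vitamin D. Of these enzymes of foreign compounds and of fatty acid epoxidation, 51 of 59 were listed and 39 were above 1 RPKM somewhere. Over all roles, 22.9% of the listed members never exceeded 1 RPKM, against 17.4% of all mRNAs. The counts by role are therefore a description and not a trait of a role. Cyp2c55, a hydroxylase of arachidonic acid, had 3596 RPKM (3561 to 3632, 40091 reads) in the kidney-labelled library, where it ranked 16th of all mRNAs. Its density was 137 RPKM in the brain-labelled library, 21.7 RPKM in the heart-labelled, 3.11 RPKM in the small intestine-labelled, 1.36 RPKM in the colon-labelled and 0.264 RPKM in the lung-labelled one. The gene (chr19:38995462-39031144, plus strand) was thus 26.2-fold (25.1 to 27.3) denser in its highest library than in the next, which carried the brain label. Muc2, the goblet cell gene, followed the same first 3 places, with 2486 RPKM under the kidney label, 596 RPKM under the brain label and 38.3 RPKM under the heart label. Of the other colon markers, Slc26a3 had the same order, with 367, 62.2 and 7.21 RPKM. Car1 had another order, with 434 RPKM under the kidney label, 37.5 RPKM under the heart label and 1.92 RPKM under the brain label. The part of these markers in the Cyp2c55 values was not tested.

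Cyp2f2, which activates naphthalene and is known from club cells of the airway, had 2942 RPKM (2911 to 2974, 33504 reads) in the lung-labelled library and ranked 20th there. In the other libraries it had 34.0 RPKM under the kidney label, 29.4 RPKM under the heart label, 22.3 RPKM under the colon label, and 1.60 RPKM under both the brain and the small intestine labels. The lung-labelled value was 86.5-fold (78.2 to 95.9) the next. The gene lies at chr7:26819322-26833090 on the plus strand. The heart-labelled library had Cyp2f2 as its leading member, and the summed density of 3 club cell markers there was 158 RPKM, against 21733 RPKM under the lung label and 4.54 to 77.9 RPKM under the other labels. Most of the sums outside the lung label came from the marker Scgb1a1, with 153 RPKM under heart, 77.1 RPKM under colon and 44.4 RPKM under kidney. The markers Scgb3a2 and Bpifa1 had at most 2 reads each under the colon and kidney labels. The part of these markers in the Cyp2f2 values outside the lung label was not tested.

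Cyp2j5, an epoxygenase of arachidonic acid known from the renal proximal tubule, had 1389 RPKM (1361 to 1417, 9405 reads) in the colon-labelled library. It had 36.8 RPKM under the brain label, 5.97 RPKM under the kidney label, 3.87 RPKM under the lung label, 0.813 RPKM under the heart label and 0.783 RPKM under the small intestine label. The colon-labelled value was 37.8-fold (34.7 to 41.1) the next. The 4 proximal tubule markers examined summed to 4372 RPKM in that library, against 5.43 to 119 RPKM in the other 5. Of the 119 RPKM, which were under the lung label, 112 RPKM came from the marker Lrp2.

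The relatives of Cyp2j5 on the same chromosome were not led by 1 library. Cyp2j6 had 289 RPKM under the brain label, 77.1 RPKM under the kidney label, 52.0 RPKM under the colon label, 32.6 RPKM under the small intestine label, 26.7 RPKM under the lung label and 6.83 RPKM under the heart label. Cyp2j9, a hydroxylase of arachidonic acid, had 102 RPKM under the small intestine label, 8.00-fold (6.74 to 9.55) the next value, and from 4.54 to 12.8 RPKM in the other 5. Cyp2j11 had 164 RPKM under the colon label and 23.9 RPKM under the brain label, with at most 3 reads in any other library. Cyp2j6 and Cyp2j9 were above 1 RPKM in every library, whereas Cyp2j11 was so in only those with the colon and brain labels.

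Cyp3a13, a drug-metabolising enzyme of the gut, had 160 RPKM in the brain-labelled library and 56.9 RPKM in the kidney-labelled one. It had 5.11 RPKM under the small intestine label, 1.78 RPKM under the heart label, 0.883 RPKM under the colon label and a single read under the lung label. Cyp3a11, its best-known relative in liver, followed the same first 2 places with 34.5 and 5.41 RPKM. The 4 members Cyp3a11, Cyp3a13, Cyp3a25 and Cyp3a44 all had their highest density under the brain label and their second highest under the kidney label. The remaining Cyp3a gene above 1 RPKM, Cyp3a57, was highest under the colon label, with 10 reads (1.47 RPKM), and had none under the kidney label.

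Cyp2s1, an epithelial enzyme outside the liver, was among the most evenly spread members. It had 88.6 RPKM under the kidney label, 77.3 RPKM under the brain label, 66.4 RPKM under the lung label, 18.0 RPKM under the colon label, 7.14 RPKM under the small intestine label and 3.90 RPKM under the heart label. Its highest value exceeded the next by 1.15-fold (1.05 to 1.25). Cyp2c65 had 53.8 RPKM under the kidney label and 29.7 RPKM under the brain label, and at most 1.58 RPKM elsewhere. Cyp2e1, the ethanol-oxidising enzyme, had 87.7 RPKM under the colon label, 51.3 RPKM under the kidney label, 20.6 RPKM under the lung label, 9.60 RPKM under the brain label, 3.27 RPKM under the small intestine label and 2.81 RPKM under the heart label. It was therefore above 1 RPKM in every library but led in none by more than 1.71-fold (1.52 to 1.92).

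The lung-labelled library held a further pair of inducible enzymes. Cyp1a1, the classic target of the aryl hydrocarbon receptor, had 95.4 RPKM there, 6.52 RPKM under the brain label, 1.34 RPKM under the kidney label, 0.933 RPKM under the heart label, 0.282 RPKM under the colon label and no reads under the small intestine label. Cyp2b10, a target of the constitutive androstane receptor, had 143 RPKM under the lung label, 31.7 RPKM under the brain label, 3.55 RPKM under the colon label, 1.63 RPKM under the heart label, 0.264 RPKM under the kidney label and no reads under the small intestine label. Both genes had the same first 2 libraries, and the lung-labelled value was 14.6-fold (12.0 to 18.0) the next for Cyp1a1 and 4.52-fold (4.09 to 5.01) for Cyp2b10. Cyp2u1, a fatty acid hydroxylase, was nearly level in 3 libraries, with 12.4 RPKM under the lung label, 12.0 RPKM under the colon label and 10.9 RPKM under the heart label, and its highest value did not differ from the next beyond counting error (1.04-fold, 0.791 to 1.37).

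Family 4, whose members hydroxylate fatty acids at the chain end, had 15 of 17 genes listed and 14 above 1 RPKM somewhere. Its summed density was 761 RPKM under the brain label and 615 RPKM under the lung label, 244 RPKM under the colon label, 108 RPKM under the kidney label, and 32.7 and 27.4 RPKM under the small intestine and heart labels. These sums made up 44.2% of the members' total in the brain-labelled library and 2.55% in the kidney-labelled one. Different genes led in different libraries.

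Cyp4v3, the mouse counterpart of a fatty acid hydroxylase that is mutated in a human retinal dystrophy, had 412 RPKM (402 to 422, 6897 reads) under the brain label. It had 119 RPKM under the lung label, 17.3 RPKM under the kidney label, 7.97 RPKM under the small intestine label, 7.75 RPKM under the colon label and 4.19 RPKM under the heart label. It was one of the 8 members above 1 RPKM in every library, and its highest value was 3.46-fold (3.27 to 3.66) the next. Cyp4b1, which acts on fatty acids and on lung toxicants, had 469 RPKM under the lung label, 134 RPKM under the brain label, 57.9 RPKM under the colon label, 24.1 RPKM under the kidney label, 20.2 RPKM under the heart label and 2.22 RPKM under the small intestine label. The lung and brain labels thus held the first 2 places for both genes, in opposite order.

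Cyp4f14, a leukotriene hydroxylase, had 166 RPKM under the brain label and 17.6 RPKM under the kidney label, a 9.41-fold (8.18 to 10.9) difference, and 5.91 RPKM or less elsewhere. Its relative Cyp4f15 had 9.31 RPKM under the small intestine label and at most 1.81 RPKM in any other library. Cyp4a10 and Cyp4a14, both targets of the fatty acid receptor PPAR alpha, had 76.9 and 86.3 RPKM under the colon label. For both genes the next library was the one labelled lung, with 3.81 RPKM for Cyp4a10 and 4.93 RPKM for Cyp4a14. They were 20.2-fold (14.9 to 28.0) and 17.5-fold (13.3 to 23.3) denser under the colon label than under the lung label, and neither had reads under the heart label.

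All 6 enzymes of cholesterol and bile acid metabolism were listed and 4 exceeded 1 RPKM somewhere. Cyp46a1, the cholesterol hydroxylase of neurons, had 174 RPKM (166 to 182, 1992 reads) under the small intestine label. It had 0.815 RPKM from 10 reads under the heart label, 0.444 RPKM from 3 reads under the colon label, 1 read under the kidney label and none under the brain and lung labels. The gene lies at chr12:108300493-108328512 on the plus strand, and its highest value was 213-fold (116 to 445) the next. The 3 neuronal markers summed to 3338 RPKM under the small intestine label and to 2.25 to 117 RPKM under the others. Of the 117 RPKM, which were under the lung label, 112 RPKM came from the marker Stmn2, and Snap25 had no reads there. Cyp46a1 thus made up 42.1% of the P450 total in the library with the neuronal markers.

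Cyp27a1, the mitochondrial sterol hydroxylase, was the most even member of the sterol group. It had 18.3 RPKM under the colon label, 10.6 RPKM under the kidney label, 9.71 RPKM under the lung label, 8.53 RPKM under the brain label, 4.97 RPKM under the heart label and 3.03 RPKM under the small intestine label. Cyp7b1, an oxysterol hydroxylase, had 5.25 RPKM under the brain label, 5.07 RPKM under the small intestine label and 4.17 RPKM under the lung label, where the first 2 did not differ beyond counting error (1.04-fold, 0.734 to 1.47), and at most 3 reads elsewhere. Cyp39a1, which acts on the oxysterol that Cyp46a1 makes, had 7.34 RPKM under the lung label, 4.30 RPKM under the kidney label, 2.77 RPKM under the heart label, 3 reads under the brain label and none under the small intestine and colon labels. Cyp46a1 and Cyp39a1 thus had no library in common above 1 RPKM. Cyp7a1, the rate-limiting enzyme of bile acid synthesis, had 6 reads under the kidney label and 1 under the brain label. Cyp8b1, which sets the makeup of bile acids, had 10 reads under the kidney label and 1 under the small intestine label, so both of these liver enzymes stayed under 1 RPKM throughout.

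All 3 vitamin D enzymes were listed, and the colon-labelled library was the only one with all 3 above 1 RPKM. Cyp24a1, which inactivates vitamin D, had 10.9 RPKM (76 reads) under the colon label and at most 2 reads in any other library. Cyp27b1, which makes the active hormone, had 17.3 RPKM under the kidney label, 6.71 RPKM under the small intestine label, 6.28 RPKM under the colon label, 0.643 RPKM under the heart label and no reads under the brain and lung labels. Cyp2r1, which carries out the first hydroxylation, had 17 reads (2.51 RPKM) under the colon label and 1 read under the heart label. The activating enzyme therefore had its highest value in a library without a single read of the inactivating one. No vitamin D enzyme had a read in the lung-labelled library, where 3 reads on a CDS of 1500 nt would have given 0.259 RPKM.

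Of the 3 enzymes that clear retinoic acid, Cyp26b1 had 5.47 RPKM under the lung label, 4.41 RPKM under the brain label, 3.32 RPKM under the small intestine label, 1.43 RPKM under the heart label, 1 read under the kidney label and none under the colon label. Its first 2 values did not differ beyond counting error (1.24-fold, 0.874 to 1.76). Cyp26a1 had 1.32 RPKM under the small intestine label, 0.708 RPKM under the kidney label, 3 reads under the heart label and none elsewhere. Cyp26c1 was not listed.

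Steroid hormone synthesis was almost without reads. Cyp17a1, needed for androgens, had 17 reads (1.47 RPKM) under the kidney label, 3 reads under the small intestine label and 1 read each under the colon and heart labels. Cyp21a1, needed for corticosteroids, had 1 read in all, under the kidney label. Cyp11a1, Cyp11b1 and Cyp19a1 were listed without a read on the CDS in any library, and Cyp11b2 was not listed. Star, which feeds cholesterol into steroid synthesis, had no reads in any library either, and Hsd3b1 reached at most 2.95 RPKM. Outside all of these roles, Cyp20a1, whose substrate is not established, had from 4.41 to 17.5 RPKM in 5 libraries and 0.204 RPKM under the brain label.

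The 64 members above 1 RPKM somewhere were then sorted by the library in which each was highest, beside the same count over the 15238 mRNAs that met that condition. Under the kidney label 16 members (25.0%) were highest, against 8.75% of all mRNAs. Under the colon label 17 members (26.6%) were highest against 15.3%, and under the brain label 13 members (20.3%) against 15.0%. The shares were 13 members (20.3%) against 24.7% under the lung label, 5 members (7.81%) against 23.3% under the small intestine label and 0 members against 12.9% under the heart label. The kidney-labelled library thus led for P450 genes more often than for mRNAs at large, but 8 of its 16 genes had at most 5 RPKM there. For 10 of the 13 members highest under the brain label the next library was the one labelled kidney. The same count over all mRNAs was not made, so this order cannot be called particular to P450 genes. In 11 of the 64 the counting interval of the ratio between the highest and next library held 1, so that their order could not be told.

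Density was often concentrated in a single library. After adding 1 RPKM to each value, 19 of the 64 members (29.7%) were at least 5-fold denser in their highest library than in the next, against 14.8% of all mRNAs. These 19 comprised 7 highest under the colon label, 4 under the kidney label, 3 each under the brain and lung labels, 2 under the small intestine label and 0 under the heart label. The median of this ratio was 2.86 for members and 1.71 for all mRNAs. Above 1 RPKM in exactly 1 library were 22 of the 83 listed members (26.5%), against 12.0% of all mRNAs. For 11 of the 22 that library carried the kidney label, and the matching share of all mRNAs was not counted. Above 1 RPKM in all 6 were 8 members (9.64%) against 34.8%, namely Cyp27a1, Cyp2e1, Cyp2f2, Cyp2j6, Cyp2j9, Cyp2s1, Cyp4b1 and Cyp4v3.

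Of the 11 members above 1 RPKM under the kidney label only, several belong to subfamilies known from liver, so liver markers were read beside them. All 6 liver markers were above 1 RPKM in the kidney-labelled and colon-labelled libraries, with sums of 923 and 1071 RPKM. Alb had 633 RPKM in the kidney-labelled library and 375 RPKM in the colon-labelled one, against 3.75 to 83.3 RPKM elsewhere, and Tat had 24.6 and 12.4 RPKM against at most 0.192 RPKM elsewhere. Serpina1c had reads in these libraries alone, with 1.81 and 5.02 RPKM. The rest of the list was ordered otherwise, since Cps1, which enterocytes also make, had 196 RPKM under the brain label against 23.6 and 14.1 RPKM, and Apoh had 15.1 RPKM under the brain label against 16.8 and 10.08 RPKM. The sum of the list was higher still under the small intestine label, at 1863 RPKM, of which 1819 RPKM came from Ttr, a gene also made in the choroid plexus. The part of liver RNA in the low P450 values was not tested.

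**Figure D3:**
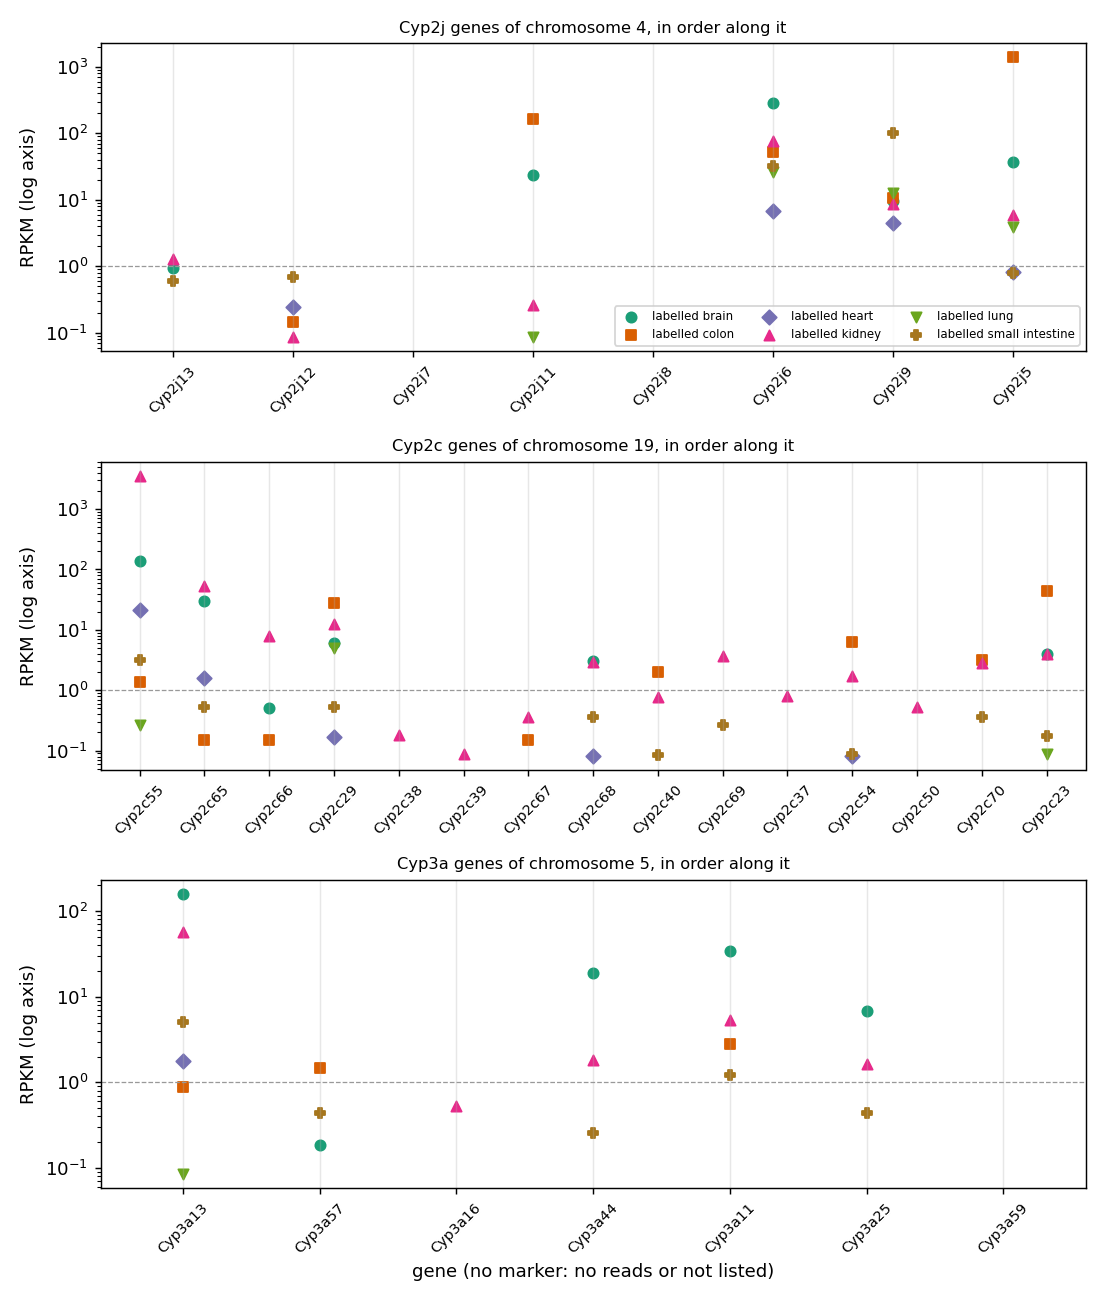
RPKM (vertical axis, log scale) of the Cyp2j genes of chromosome 4, the Cyp2c genes of chromosome 19 and the Cyp3a genes of chromosome 5, in their order along the chromosome (horizontal axis), with a symbol and colour for each library and the dashed line at 1 RPKM. The first 3 Cyp2c genes share the kidney label as their highest library, while in the Cyp2j row the highest library changes between Cyp2j11 (colon), Cyp2j6 (brain), Cyp2j9 (small intestine) and Cyp2j5 (colon).

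Neighbouring P450 genes of a subfamily are known to have arisen by duplication, and their order on the chromosome was compared with their leading library. At chr19:38995462-40175777 (GRCm39) lay 14 Cyp2c genes, of which 9 exceeded 1 RPKM somewhere, with 4 highest under the colon label, 4 under the kidney label and 1 under the brain label. Its first 3 genes, Cyp2c55, Cyp2c65 and Cyp2c66, were all highest under the kidney label and next highest under the brain label, with 3596, 53.8 and 7.98 RPKM in the former. The Cyp2j row at chr4:95915771-96552451 was less uniform, since its 5 genes above 1 RPKM had 4 different leading libraries. Cyp2j6 and Cyp2j9, adjacent on the minus strand, were highest under the brain and the small intestine labels. The row of Cyp4a, Cyp4b and Cyp4x genes at chr4:114963434-115504999 had 3 genes highest under the colon label, 1 under the lung label and 1 under the small intestine label. The 13 genes at chr7:25501895-26858093, which include Cyp2f2, Cyp2a5 and Cyp2s1, had 4 highest under the kidney label and 3 under the lung label.

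Near-identical relatives also lose reads, because reads that mapped to several mRNAs had been removed. For each member the share of 29-nt windows of the CDS that occur in no other place among 21770 mRNAs was counted, as the length of a ribosome footprint. All windows were unique in 30 of the 95 members, and the median was 87.3%. Fewer than 50% were unique in 17 members, a count that was 23 with windows of 25 nt and 12 with windows of 33 nt. The lowest was Cyp2c40 with 10.1%, and its highest density was 1.99 RPKM from 14 reads under the colon label, or 19.8 RPKM when these reads were divided by the unique windows only. Median uniqueness was 89.3% in members that exceeded 1 RPKM somewhere and 68.9% in the 19 listed members that never did. Of the 12 members not listed, 3 had under 50% unique windows, namely Cyp4a32 (32.8%), Cyp3a59 (41.8%) and Cyp2d11 (42.8%).

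The windows below show what a footprint could and could not tell apart in 3 pairs of genes from the same chromosomal rows, with 29 nt of each CDS and the bases that differ between the pair in capitals. Cyp4a10 and Cyp4a32 were identical at 97.2% of their bases, Cyp2a5 and Cyp2a4 at 98.4% and Cyp2c65 and Cyp2c66 at 96.3%. A first line gives a window that both genes of a pair share, and the next lines the window in which they differ most.
Cyp4a10 and Cyp4a32, bases 25 to 53: acccgatttgcagacagcctctctggctt
Cyp4a10, bases 200 to 228: gTgaCcaagaactaCaggaaAttgtgtcG
Cyp4a32, bases 200 to 228: gCgaAcaagaactaAaggaaGttgtgtcA
Cyp2a5 and Cyp2a4, bases 1 to 29: atgctgacctcaggactcctcctggtggc
Cyp2a5, bases 597 to 625: gtcactGcttCgaatgatgctgggaagcT
Cyp2a4, bases 597 to 625: gtcactTcttAgaatgatgctgggaagcC
Cyp2c65 and Cyp2c66, bases 1 to 29: atggttctaggtgtgtttctggggcttct
Cyp2c65, bases 295 to 323: GTTtttccagtgTTtgaTaagtttaAGaA
Cyp2c66, bases 295 to 323: ACCtttccagtgGCtgaCaagtttaTCaG
The most divergent window held 5 differences in the first pair, 3 in the second and 9 in the third. Of the windows of Cyp4a10, 53.3% were shared with Cyp4a32, and 38.7% were found nowhere else.

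Dividing the reads by the number of unique windows gave a density on the part of the CDS that could be counted. Cyp4a10 then had 199 RPKM in place of 76.9 RPKM under the colon label, and Cyp2a5 had 64.9 RPKM in place of 25.7 RPKM under the lung label. Cyp3a11, 48.5% unique, had 71.1 RPKM in place of 34.5 RPKM under the brain label, and Cyp2c65 had 96.4 RPKM in place of 53.8 RPKM under the kidney label. On this scale Cyp4a10 passed Cyp4a14, 96.6% unique, which had 89.3 RPKM in place of 86.3 RPKM under the colon label. Cyp2a4, 39.9% unique, had 4.36 RPKM under the kidney label and at most 0.618 RPKM elsewhere, whereas Cyp2a5, 39.7% unique, also had 11.1 RPKM under the kidney label and 8.54 RPKM under the colon label. The other members with under 50% unique windows and more than 1 RPKM somewhere were Cyp4f16 (16.7 RPKM under the brain label), Cyp3a25 (6.79 RPKM under the brain label), Cyp2c69 (3.67 RPKM under the kidney label), Cyp2c68 (3.00 RPKM under the brain label) and Cyp2d10 (2.97 RPKM under the kidney label). Values of these genes are uncertain, since reads from their copies cannot be assigned.

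**Figure D4:**
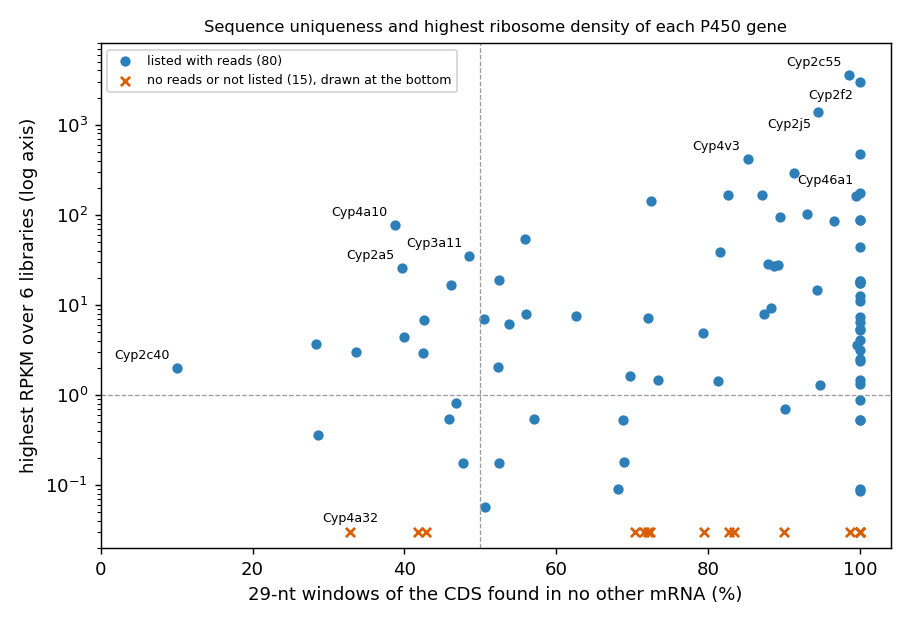
Percent of the 29-nt windows of each CDS that occur in no other mRNA (horizontal axis) and the highest RPKM of that P450 gene over the 6 libraries (vertical axis, log scale), 1 point per gene, with dashed lines at 50% and at 1 RPKM. The densest genes, Cyp2c55, Cyp2f2 and Cyp2j5, lie at the right with mostly unique windows, and crosses along the lower edge mark the 15 genes that had no reads or were not listed.

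The study from which these libraries come concerns codon choice, and the members were therefore described by GC3, the percent of codons ending in G or C with Met, Trp and stop codons left out. The median GC3 was 58.9% both in the 83 listed members and in 18178 mRNAs. The members spanned 34.9% in Cyp2r1 to 77.3%, and they divided by subfamily. The 6 Cyp3a genes lay between 43.4% and 46.4%, the 6 Cyp2j genes between 47.8% and 51.9%, and the 15 Cyp2c genes had a median of 45.5%. In contrast, the 9 Cyp4f genes lay between 64.4% and 68.3%, and the 6 Cyp2d genes between 60.6% and 66.3%. Weighted by RPKM, the members' GC3 was 49.6% in the kidney-labelled library and 67.1% in the lung-labelled one, against 57.8% and 58.5% for all mRNAs. Those values tracked the leading genes, since Cyp2c55 had a GC3 of 48.3% and Cyp2f2 one of 69.1%, and without the leading gene the members stood at 56.9% and 61.6%.

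In each library, also those with little P450, most genes that supply P450 enzymes with electrons and heme had reads. Of 8 electron transfer genes, 1 had no reads under each of the brain, colon and lung labels. Of 8 heme synthesis genes, 2 had none under the brain label, 1 under the colon label and 2 under the lung label. Por, the reductase that supplies electrons to P450s of the endoplasmic reticulum, had 147 RPKM under the colon label, 133 RPKM under the lung label, 57.9 RPKM under the kidney label, 49.5 RPKM under the small intestine label, 46.8 RPKM under the brain label and 16.3 RPKM under the heart label. The kidney-labelled library, with the highest P450 sum, thus had only the third place for Por. Alas1, the first enzyme of heme synthesis, had 985 RPKM under the lung label, 900 RPKM under the heart label, 650 RPKM under the brain label, 520 RPKM under the colon label, 213 RPKM under the kidney label and 77.5 RPKM under the small intestine label. The heart-labelled library thus had the second highest Alas1 and the lowest P450 sum. Fdx1, which carries electrons to mitochondrial P450s such as Cyp27a1, had 117 RPKM under the heart label and from 4.00 to 82.3 RPKM elsewhere. Of 8 electron transfer genes, between 6 and 8 exceeded 1 RPKM in every library, and of 8 heme synthesis genes between 5 and 7. Among all mRNAs the share above 1 RPKM was 51.4% to 66.0% by library.

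Receptors and other factors that regulate P450 genes varied more. This list includes Arnt, the partner of Ahr, and Ahrr, its repressor. Of its 10 listed genes, 9 lay above 1 RPKM under the brain, colon and kidney labels, against 51.4%, 56.5% and 62.5% of all mRNAs. The counts were 7 under the lung label, 6 under the heart label and 3 under the small intestine label, against 55.0%, 60.0% and 66.0%. Nr1i2, the pregnane X receptor that drives Cyp3a genes, had 71.6 RPKM under the brain label and 27.6 RPKM under the kidney label, which were the first 2 libraries of Cyp3a11 and Cyp3a13 as well, followed by 15.1 RPKM under the colon label and at most 3.60 RPKM elsewhere. Ahr, the receptor that drives Cyp1a1, had its highest value under the lung label, with 10.4 RPKM, and 6.99 RPKM under the colon label, where Cyp1a1 had 2 reads. Under the brain label Ahr had no reads although Cyp1a1 had 6.52 RPKM. Vdr, which drives Cyp24a1, had 70.8 RPKM under the brain label, 27.4 RPKM under the colon label and 27.1 RPKM under the kidney label, whereas Cyp24a1 was above 1 RPKM under the colon label only. Nr1i3, the constitutive androstane receptor, was not listed.

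**Figure D5:**
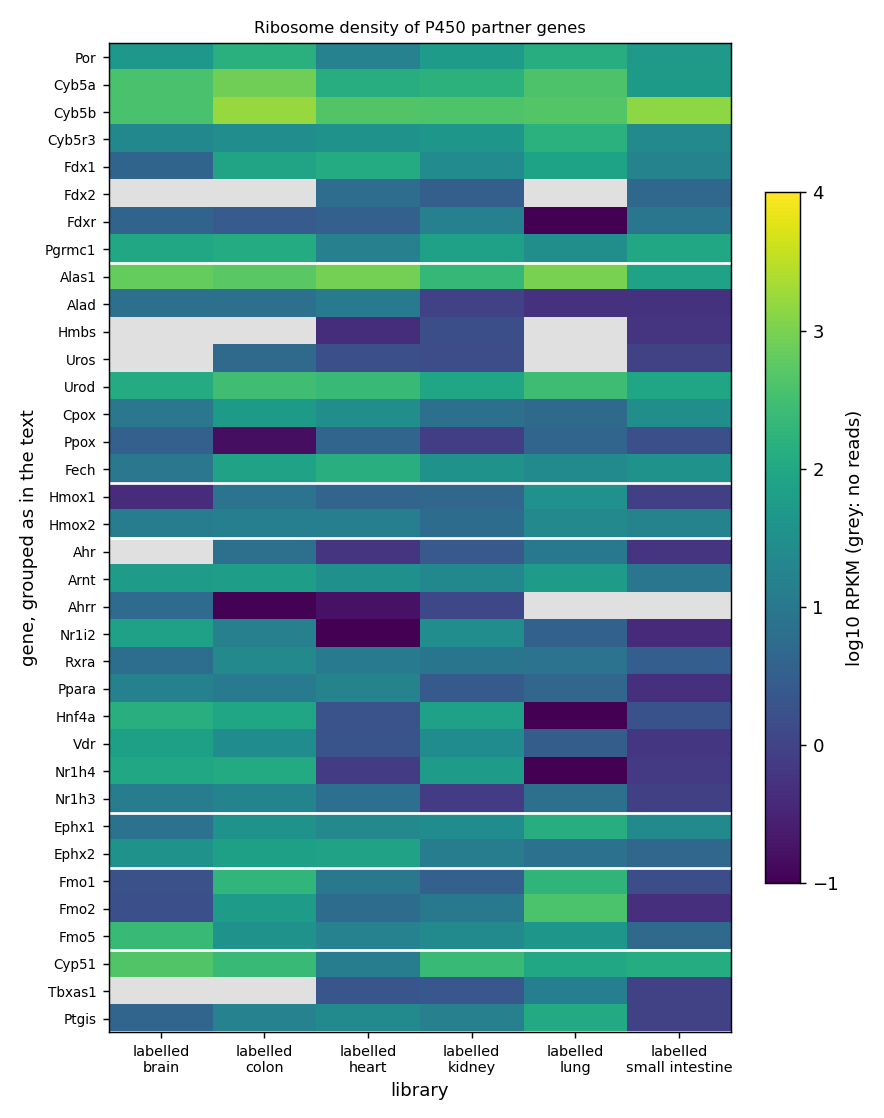
Ribosome density of genes that work with P450 enzymes (rows, grouped by function from electron transfer at the top through heme synthesis, heme breakdown, receptors, epoxide hydrolases and flavin monooxygenases to P450s outside the symbol rule) in the 6 libraries (columns, by label), as log10 RPKM on a colour scale, grey for no reads. Alas1 is bright in the heart-labelled and lung-labelled columns (900 and 985 RPKM), and the receptors Nr1i2, Hnf4a, Vdr and Nr1h4 are brightest under the brain, colon and kidney labels.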

How the data were processed

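Ribo-seq was performed on 6 mouse tissues, with 1 library per tissue. The authors deposited 1 RPKM value per mRNA for each library, with the CDS position in the row name. The methods describe the macrophage libraries only and were assumed to apply to the tissues. Cutadapt removed adapters and reads under 15 nt, STAR aligned the rest to 1 mRNA per gene, that with the longest CDS (GRCm39, Ensembl), and reads that mapped to several mRNAs or had over 2 mismatches were dropped. The versions of Cutadapt and STAR are not given in the sources used here. The loss of multi-mapped reads lowers the values of near-identical genes.

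The product of RPKM and CDS length came out as whole reads for 100% of the values (tolerance 0.0001), which gave the reads per gene. Symbols, coordinates and CDSs came from GENCODE M39 on GRCm39. The 83 listed members had the same transcript and CDS length there, and 13 mRNAs had no symbol. An mRNA not listed in a library was taken as 0 reads, for which 3 reads give the limit. Intervals are exact Poisson for a density, Wilson for a share and exact conditional binomial for a ratio of 2 libraries, all covering counting error only. Summed intervals used the normal approximation of the summed Poisson variance. There was no count test, since no group had over 1 library.

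The members and the lists of roles, partners and markers were chosen with earlier results of these data known. Named with values were the 5 densest members of each library, the densest of each family number, all steroid, sterol, vitamin D and retinoic acid members with reads, and members under 50% unique with more than 1 RPKM. Cyp2c66, Cyp3a44 and Cyp3a57 were named after their values were seen, and GC3 was added then too. A gene of the partner lists is not reported here. Alternatives covered thresholds, depth, scaling, pseudocount, membership and unique length. On simulated data with 1 mRNA set to 1 read, reads were recovered for 100% of 5000 mRNAs. That setting fixed the outcome, so it does not check a library whose lowest count is above 1 read. The tools were scipy 1.17.1, numpy 2.4.6, matplotlib 3.10.9 and pandas 2.3.3 in Python 3.11.15.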

Additional observations from a re-analysis of the deposited data

How the results depend on the processing

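No paired analysis was possible because each tissue had 1 library and the labels gave no replicate numbers. The order of the summed densities (kidney, lung, colon, brain, small intestine and heart labels) was kept under every scaling tried and turned only when each library's densest member was left out, when the sums were 1309 RPKM under the brain label, 1089 under lung, 843 under colon, 642 under kidney, 239 under small intestine and 106 under heart. Without Kri1, which took 22.1% of the kidney-labelled reads and 14.1% of the small intestine-labelled ones, the sums were 1756 RPKM under the brain label, 2395 under colon, 5443 under kidney and 481 under small intestine. Without mitochondrially encoded mRNAs they were 1754 RPKM under the brain label, 2290 under colon, 143 under heart and 4393 under kidney. With median-of-ratios size factors they were 1651 RPKM under the brain label, 2045 under colon, 155 under heart, 4868 under kidney, 2973 under lung and 484 under small intestine. Per unique length, which can only raise them, they were 4450 RPKM under the kidney label, 4171 under lung, 2547 under colon, 1994 under brain, 439 under small intestine and 143 under heart. The other 10 values of the sums moved by less than counting error. Above 5 RPKM in place of 1 were 5 members under the heart label, 26 under kidney, 17 under lung and 12 under small intestine, fewer because the threshold was higher. The other 32 counts stayed within 1.5 times. Among them were 26 members under brain and 24 under colon above 5 RPKM, so the kidney label no longer had the most members alone. Counted by highest library, members with any reads gave 29 under the kidney label, those above 5 RPKM gave 8 under kidney and 3 under small intestine, and size factors gave 1 under heart, with 20 other counts within 1.5 times. The same library was highest for 56 of 64 members with size factors and for 60 of 64 after thinning to the lowest depth. The 19 members at least 5-fold above the next library became 11 with a pseudocount of 5 RPKM, 8 at 10-fold and 43 at 2-fold. Depth was lowest under the colon label, where a member without reads could have had up to 0.444 RPKM at 1500 nt, and a difference between tissues cannot be told apart from one between libraries.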

Other observations

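The P450 genes Cyp51, Ptgis and Tbxas1 fall outside the symbol rule because their symbols lack the final number or the prefix. Cyp51, the demethylase of cholesterol synthesis, had 446 RPKM under the brain label, 245 RPKM under the colon label, 232 RPKM under the kidney label, 127 RPKM under the small intestine label, 94.0 RPKM under the lung label and 12.9 RPKM under the heart label. It was thus denser than every member but Cyp2j5 in the colon-labelled library and denser than every member in the brain-labelled one. Ptgis, the prostacyclin synthase, had 116 RPKM under the lung label, 23.9 RPKM under the heart label, 16.3 RPKM under the colon label, 15.2 RPKM under the kidney label, 4.25 RPKM under the brain label and 0.942 RPKM under the small intestine label. Tbxas1, the thromboxane synthase, had 14.1 RPKM under the lung label and at most 2.31 RPKM elsewhere. The 2 synthases of opposing prostanoids therefore had the same highest library.

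The flavin monooxygenases, which oxidise many of the same foreign compounds without heme, also differed by library. Fmo2 had 382 RPKM under the lung label, 58.2 RPKM under the colon label, 10.5 RPKM under the kidney label, 5.79 RPKM under the heart label, 1.64 RPKM under the brain label and 0.489 RPKM under the small intestine label. Fmo1 had 197 RPKM under the colon label and 190 RPKM under the lung label, with 10.03 RPKM under the heart label, 3.39 RPKM under the kidney label, 1.71 RPKM under the brain label and 1.56 RPKM under the small intestine label. Fmo5 had 230 RPKM under the brain label and from 5.24 to 43.4 RPKM in the other libraries. The microsomal epoxide hydrolase Ephx1, which acts on epoxides that P450 enzymes make, had 129 RPKM under the lung label and from 7.58 to 35.1 RPKM elsewhere. With Ephx2, the other epoxide hydrolase examined, the sum was 136 RPKM under the lung label, 105 RPKM under colon and 97.8 RPKM under heart. The lung-labelled sum was thus mostly Ephx1, and the colon-labelled and heart-labelled sums were mostly Ephx2.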
